A study of Mus musculus with 6 samples.

Results

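Expression of 7 surface receptor genes was examined in thymocytes: *F2r* and its relative *F2rl1*, *Pdgfrb* and its relative *Pdgfra*, *Podxl*, *Dpp4* and *Cd96*. The genes were chosen for the size of their difference between the 2 groups of arrays, apart from the relatives, which stand beside them for comparison. Every probe set that the platform annotation gives to exactly 1 of these genes was taken, which gave 11 probe sets for 6 genes, out of 20380 probe sets for 12393 genes in all. Of the 11, 10 passed a filter on low values, and the other, of *Pdgfra*, did not. *F2rl1* was not analysed here. *F2r*, *Pdgfrb*, *Pdgfra*, *Podxl* and *Dpp4* were read by 2 probe sets each and *Cd96* by 1. Because the choice rests on this contrast, the values of these genes are given as a description, with standard errors and without p-values.

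RNA came from thymocytes of untreated mice aged 3 weeks, of strain C57BL6, whose *Cd3e* gene is disrupted in every sample, so that the controls carry the deletion too. A total of 3 arrays were labelled SCLtg LMO1tg, from mice with an SCL transgene under the Sil promoter and an LMO1 transgene under the Lck promoter, and 3 were labelled control, from mice with the *Cd3e* deletion and no transgene. The study compared them to find genes linked to self-renewal of pre-leukemic thymocytes. The cells were unsorted thymocytes of mice in which development stops at the DN3 stage, before CD4 and CD8 appear, and the sources do not say that each array came from a separate animal, so that the spread between arrays may be technical. In such bulk samples, fewer cells of a type and less RNA per cell cannot be told apart.

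The receptors belong to separate families. *F2r* encodes PAR1, a receptor coupled to G proteins that thrombin switches on by cutting its outer end, which then acts as its own ligand; PAR2, the product of *F2rl1*, is opened by trypsin-like proteases. *Pdgfrb* and *Pdgfra* encode the receptor tyrosine kinases for platelet-derived growth factors and are best known from pericytes and fibroblasts. *Podxl* encodes podocalyxin, a sialic acid-rich mucin of the CD34 family found on podocytes, endothelium and early blood progenitors. *Dpp4* encodes CD26, a surface peptidase that trims the ends of chemokines and holds adenosine deaminase at the membrane, and *Cd96* encodes an immunoglobulin-like receptor of T and NK cells that binds CD155.

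The values are log2 expression made by the authors with RMA, 1 number per probe set and array, with array medians between 5.57 and 5.70. *Lmo1*, the gene carried by the LMO1 transgene, read 5.11, 5.07 and 4.86 in the arrays labelled SCLtg LMO1tg and 6.64, 6.84 and 6.77 in those labelled control. The difference was −1.74 (SE 0.14, limma adjusted p = 8.3e-04), which goes against the labels. In the arrays labelled SCLtg LMO1tg, *Lyl1*, *Hhex* and *Cpa3* were also lower (−1.22, −1.03 and −2.53) and *Ptcra* was higher (1.28). The study gives these genes the opposite direction, as it does for receptors named below. Exchanged group labels would give all of these directions, and an exchange was not tested. The labels are used below as they stand. *Tal1*, the gene for SCL, read 4.55, 4.63 and 4.71 against 4.35, 4.27 and 4.44, a difference of 0.28 in the direction of the labels with no overlap. These levels did not pass the filter on low values, so *Tal1* cannot decide whether the labels hold. *Cd3e* stood at 8.58 ± 0.06 and 8.52 ± 0.18 (SD, n = 3 each), although the gene is disrupted. The arrays fall into sets of high (10.56 to 10.78) and low (9.12 to 9.78) signal of the bacterial hybridization controls added to each array. The high set holds SCLtg LMO1tg replicate 1 and control replicates 2 and 3, and the low set holds the other arrays, so that each set holds both groups and differences were also taken within each. Every difference is the arrays labelled SCLtg LMO1tg minus those labelled control, in log2 units.

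SCL and its partners bind DNA at E-boxes and GATA motifs, so the promoters of the receptors were searched for both. The RefSeq promoter table (GRCm38.p6, 250 bases before to 50 after a gene start) held *F2r*, *Dpp4*, *Cd96* and *Pdgfra*. The first 3 are printed because their mRNA differed between the groups, 5′ to 3′ on the strand of the gene, with the motifs CANNTG and GATA, on either strand, in capitals.
*F2r*, chr13:95618417-95618716, minus strand: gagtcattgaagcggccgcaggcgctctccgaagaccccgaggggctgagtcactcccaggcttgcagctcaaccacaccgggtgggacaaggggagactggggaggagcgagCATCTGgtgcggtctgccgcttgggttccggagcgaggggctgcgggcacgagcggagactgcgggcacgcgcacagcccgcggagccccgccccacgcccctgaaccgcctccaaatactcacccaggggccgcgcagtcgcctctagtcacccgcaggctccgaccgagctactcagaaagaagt
*Dpp4*, chr2:62412182-62412481, minus strand: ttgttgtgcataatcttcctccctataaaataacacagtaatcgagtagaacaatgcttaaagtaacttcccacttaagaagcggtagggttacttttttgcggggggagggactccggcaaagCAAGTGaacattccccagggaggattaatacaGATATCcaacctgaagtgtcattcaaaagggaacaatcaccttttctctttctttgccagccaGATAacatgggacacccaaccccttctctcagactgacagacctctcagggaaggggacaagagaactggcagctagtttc
*Cd96*, chr16:46120199-46120498, minus strand: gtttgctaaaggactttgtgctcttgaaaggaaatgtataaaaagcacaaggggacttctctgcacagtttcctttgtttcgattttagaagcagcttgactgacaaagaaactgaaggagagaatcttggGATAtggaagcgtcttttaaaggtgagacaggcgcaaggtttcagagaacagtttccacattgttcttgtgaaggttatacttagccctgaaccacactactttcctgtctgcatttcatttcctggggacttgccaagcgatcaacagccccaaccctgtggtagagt
The *F2r* window held 1 E-box and 0 GATA motifs, in a sequence of 68.7% G and C. The *Dpp4* window held 1 E-box and 3 GATA motifs, of which a pair overlaps on opposite strands, and the *Cd96* window held 0 E-boxes and 1 GATA motif. The window of *Pdgfra*, whose mRNA differed little, held 2 E-boxes and 0 GATA motifs. No combination of these motifs was thus common to the 3 windows printed. Both motifs are frequent: of 32817 promoter windows of this length, 72.3% hold an E-box and 57.9% a GATA motif. A match describes the letters and not the binding of a factor.

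*F2r*, the thrombin receptor gene, was lower in the arrays labelled SCLtg LMO1tg, a direction opposite to the one that the study gives for it and for *Pdgfrb*, *Dpp4* and *Cd96*. Its more abundant probe set, 1437308_s_at, read 8.45, 8.27 and 8.40 in those arrays and 10.88, 10.71 and 10.88 in the arrays labelled control. The groups were separated by a gap of 2.25, which is wider than the range within either group. The means were 8.37 ± 0.09 and 10.82 ± 0.10 (SD, n = 3 each), a difference of −2.45 (SE 0.12), or 5.45-fold on the linear scale.
The other probe set of *F2r*, 1450852_s_at, gave the same direction, with 3.92, 4.24 and 4.11 against 6.50, 6.33 and 5.49. All 3 low values lay below the 40th percentile of their arrays, where little signal stands above background, and this probe set passed the filter on low values through the control arrays alone. Its difference was −2.02 (SE 0.25), and control replicate 3 stood apart from the other control arrays. Within the high and the low hybridization sets the differences of *F2r* were −2.34 and −2.54 at the first probe set and −1.99 and −2.32 at the second.

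*Pdgfrb*, the receptor for PDGF-B, was lower at both of its probe sets, and *Pdgfra* differed by less than the spread between arrays. For *Pdgfrb* the probe set 1436970_a_at read 6.74, 6.83 and 7.20 in the arrays labelled SCLtg LMO1tg and 8.51, 7.87 and 7.88 in those labelled control. Probe set 1417148_at read 5.17, 5.32 and 5.19 against 6.46, 5.67 and 5.71. At both, control replicate 1 was the highest array and the groups did not overlap. The differences were −1.16 (SE 0.21) and −0.72 (SE 0.21). At 1417148_at, SCLtg LMO1tg replicate 1 lay just below the 40th percentile of its array.
The differences of *Pdgfrb* were larger in the low hybridization set, at −1.50 and −1.20, than in the high set, at −1.14 and −0.52. Control replicate 1 is the only control array of the low set, so the array and the set cannot be told apart. With control replicate 1 left out, *Pdgfrb* differed by −0.95 at 1436970_a_at and by −0.46 at 1417148_at.
*Pdgfra*, which encodes the sister receptor, read 5.39, 5.43 and 5.27 against 5.31, 5.48 and 5.75 at 1421916_at. At 1421917_at, which did not pass the filter, it read 3.44, 3.36 and 3.34 against 3.22, 3.36 and 3.65. The groups overlapped at both probe sets. The differences of *Pdgfra* were −0.15 (SE 0.14) and −0.03 (SE 0.14), and both had the opposite sign within the low hybridization set, at 0.04 and 0.13.

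*Podxl*, the podocalyxin gene, was lower at 1 of its probe sets and differed little at the other. Probe set 1448688_at read 5.71, 5.16 and 5.43 in the arrays labelled SCLtg LMO1tg and 6.95, 6.82 and 6.24 in those labelled control. Its groups did not overlap, and the difference was −1.24 (SE 0.21). SCLtg LMO1tg replicate 2, at 5.16, lay just above the 40th percentile of its array, 5.10. Probe set 1417396_at read 6.03, 5.43 and 5.66 against 5.61, 5.93 and 5.78, with a difference of −0.06 (SE 0.17) and groups that overlapped.
The annotation ties both probe sets of *Podxl* to the same transcript record. The cause of their disagreement was not tested. Within the low hybridization set the first probe set differed by −1.65 and the second by −0.06, and within the high set they differed by −0.82 and 0.18. Averaged over both probe sets, *Podxl* differed by −0.65.

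*Dpp4*, which encodes the peptidase CD26, was lower at its abundant probe set, and its other probe set had a lower mean with overlapping groups. Probe set 1416697_at read 8.15, 8.43 and 8.40 in the arrays labelled SCLtg LMO1tg and 9.15, 9.63 and 9.18 in those labelled control, a difference of −0.996 (SE 0.16). Probe set 1441342_at read 5.68, 5.63 and 5.95 against 7.0, 5.73 and 6.58, a difference of −0.68 (SE 0.29). The probe sets disagreed on control replicate 2, which was the highest array at the first and the lowest control array at the second. The first probe set differed more in the high hybridization set (−1.26) than in the low set (−0.74), and the second less (−0.47 against −1.21).
*Cd96*, the receptor for CD155, read 7.91, 7.78 and 8.09 in the arrays labelled SCLtg LMO1tg and 8.78, 8.49 and 8.66 in those labelled control. The groups did not overlap, with a gap of 0.41. The difference was −0.72 (SE 0.14), and within the high and the low hybridization sets it was −0.67 and −0.85.

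**Figure D1:**
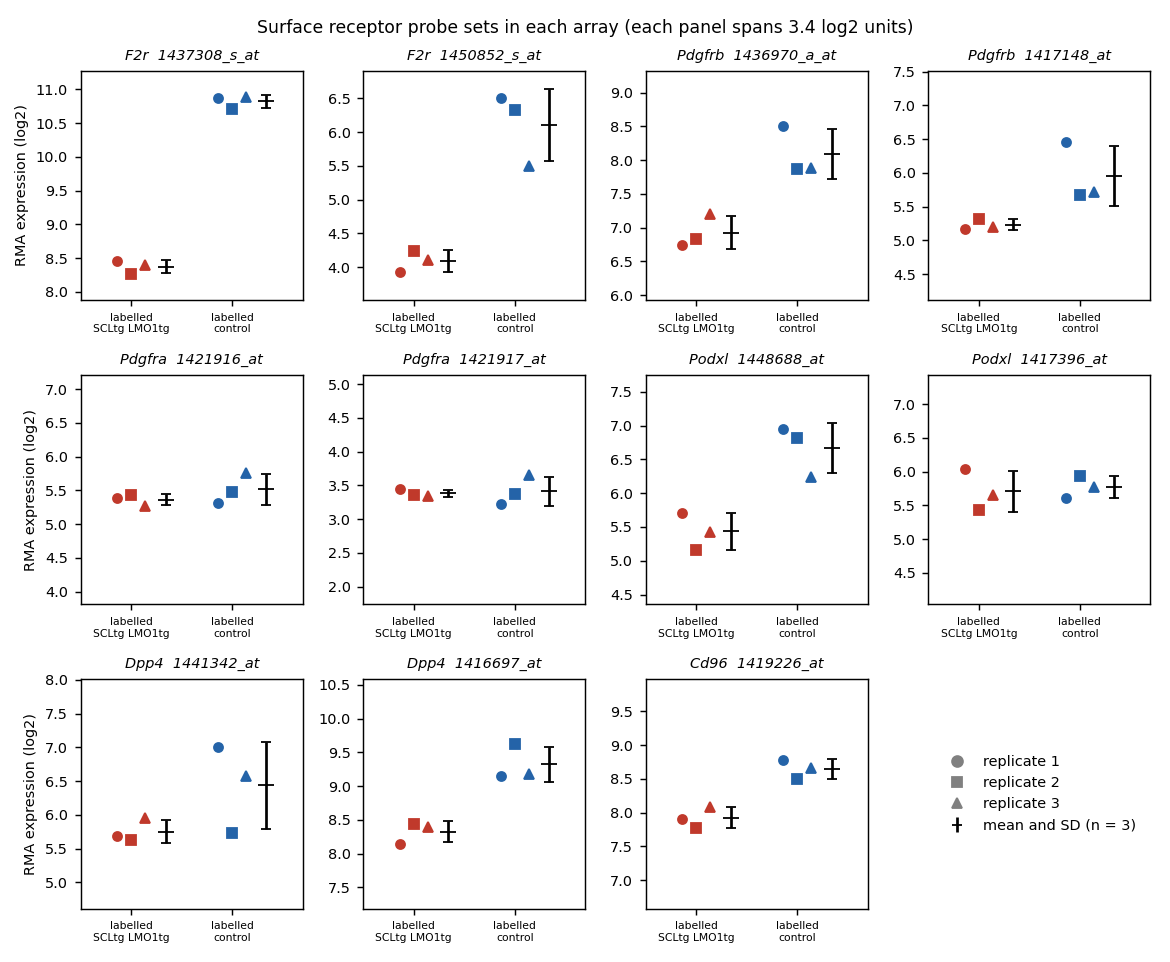
RMA expression (log2, y axis) of the 11 probe sets in each array, red for arrays labelled SCLtg LMO1tg and blue for arrays labelled control, with marker shapes for the replicates and black bars that mark mean and SD over 3 arrays. The groups lie furthest apart at the *F2r* probe set 1437308_s_at, at means of 8.37 and 10.82, and overlap at both *Pdgfra* probe sets, at *Podxl* 1417396_at and at *Dpp4* 1441342_at.

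At 7 of the 11 probe sets every array labelled SCLtg LMO1tg lay below every array labelled control, and at 0 the reverse was the case. Over all 22626 probe sets other than Affymetrix controls, 6.89% had this pattern. The mean was lower at all 11 probe sets and by more than 1 at 4 of them, which 0.0884% of all probe sets were. These counts follow from the choice of the genes and support nothing further. Ranked by their differences among 8693 genes tested, from the largest fall, *F2r* stood at 2, *Podxl* at 7, *Pdgfrb* at 9, *Dpp4* at 12, *Cd96* at 40 and *Pdgfra* at 2151. These positions describe genes chosen on the same contrast, and with the direction turned they would count from the largest rise.
With the threshold of limma set at an adjusted p of 0.05 over the 8693 genes, 1 of the 6 receptors was called (*F2r*, lower), where 0.161% of genes were called in either direction and 0.0805% in each. Since the choice used this contrast, nothing is read from that comparison. The same holds for all calls of the receptors that follow. Rank products, the test that the study's methods name, called *F2r*, *Pdgfrb* and *Podxl* at a percentage of false positives under 0.01, where 0.253% of all genes were called. The study's gene list used this threshold after another filter on absent probe sets, so it need not match these calls. Under 0.1 rank products called 5 of the 6, *Dpp4* and *Cd96* being added, where 1.01% of all genes were called. The same 5 genes were called by limma after quantile normalization once more, where 0.357% of all genes were, and with array weights, where 6.29% were. At an adjusted p under 0.1 limma called 4 (all of these but *Cd96*), where 0.38% of genes were. It called *F2r* and *Pdgfrb* with the hybridization set as a block, where 0.322% were, and *F2r* and *Podxl* with control replicate 3 left out, where 0.161% were.
The spread between arrays of a group differed among the receptors, and whether the choice depended on it was not tested. The pooled SD within groups was 0.10 for *F2r* and 0.15 for *Cd96*, below the median of 0.21 over all probe sets that passed the filter. It was 0.22 for *Dpp4*. At 0.31 for *Pdgfrb* and 0.33 for *Podxl* it lay above the upper quartile of 0.28, each gene read at its most abundant probe set.

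**Figure D2:**
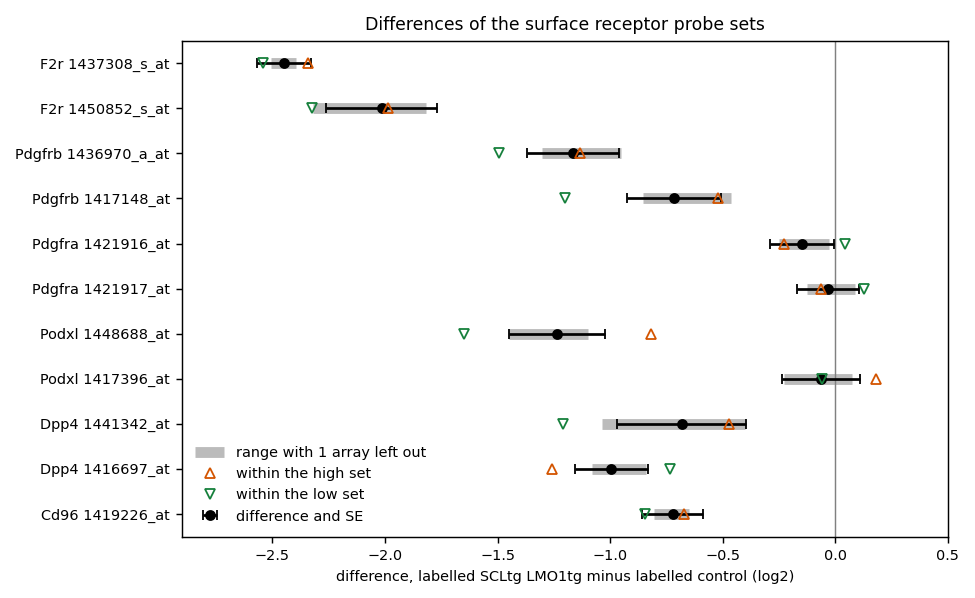
Difference between the arrays labelled SCLtg LMO1tg and those labelled control (log2, x axis) for each of the 11 probe sets, with black points and bars for the difference and its SE, grey bars for the range with 1 array left out, and triangles for the difference within the high and the low hybridization set. *F2r* lies at −2.45 and −2.02, while the 2 probe sets of *Podxl* lie apart, at −1.24 and −0.06.

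The other genes of the receptors' pathways were read from 7 lists, which hold 89 tested genes. Of these, limma called 0 with an adjusted p below 0.05, and rank products called 0 under 0.1. An unadjusted limma p below 0.05 was found for 13 of them, and for 821 of all 8693 genes (9.44%). Over all 8693 genes the median difference was −0.01 and 14 genes were called, 7 in each direction.
Of the proteases, inhibitors and other receptors around PAR1, 10 of 20 genes with a probe set were tested, with a median difference of −0.11. *Gzma*, which encodes the serine protease granzyme A, was the most different, by 0.58 (SE 0.19, limma adjusted p = 0.379), with means of 10.49 ± 0.15 and 9.91 ± 0.34 (SD, n = 3 each). *F2rl2*, which encodes PAR3 and lies next but one to *F2r* on its chromosome, differed by −0.16 (SE 0.16, adjusted p = 0.719), and the coagulation genes *F10* and *Serpind1* by −0.22 and −0.17 (SE 0.16 and 0.15). Genes of thrombin regulation at the cell surface, *F3*, *Thbd* and *Procr*, lay below the filter.
Of the G proteins, kinases and arrestins that act below PAR1, 24 genes were tested, with a median of 0.03. The largest differences were those of *Rgs2*, which limits G protein signals, at 0.93 (SE 0.40, adjusted p = 0.519), and of the protein kinase C genes *Prkca* and *Prkcb*, at 0.68 (SE 0.25) and 0.57 (SE 0.22). The arrestin gene *Arrb2* differed by −0.48 (SE 0.21). The 3 positive differences run against that of *F2r*, and none of these 4 genes passed.

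Of the PDGF ligands and the other class III receptor kinases, 8 genes were tested, with a median of −0.12. *Kit*, the stem cell factor receptor, differed by −0.23 (SE 0.17, limma adjusted p = 0.659), its ligand gene *Kitl* by −0.16 (SE 0.14), *Csf1* by −0.21 (SE 0.13) and *Pdgfb*, a ligand of the product of *Pdgfrb*, by −0.15 (SE 0.15). None of them passed, and *Pdgfc* and *Pdgfd* lay below the filter. *Csf1r*, the neighbour of *Pdgfrb* and a receptor of the same class, differed by 0.12 (SE 0.21, limma adjusted p = 0.838), with means of 8.44 ± 0.40 and 8.32 ± 0.17 (SD, n = 3 each).
Of the adaptors and transducers of these receptors, 23 genes were tested, with a median of −0.03. The adaptor gene *Grb2* differed by −0.62 (SE 0.13, adjusted p = 0.141), *Stat5a* and *Stat5b* by −0.66 (SE 0.21) and −0.57 (SE 0.15), and the kinase gene *Fyn* by 0.79 (SE 0.33). None passed over all genes. *Stat5a* was called in the fit that took the hybridization set as a block.

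Around *Podxl*, no gene was called either. Of the CD34 family, its cytoskeletal partners and the selectins, 7 of 15 genes with a probe set were tested, with a median of −0.05, and the sialomucin genes *Cd34* and *Emcn* lay below the filter. The membrane linker genes *Rdx* and *Ezr* differed by 0.48 (SE 0.26) and −0.27 (SE 0.18), *Fut7* by −0.35 (SE 0.19) and *Selp* by −0.31 (SE 0.18).
Of the peptidases related to *Dpp4* and its binding partners, 13 genes were tested, with a median of 0.10. *Ada*, whose product, adenosine deaminase, binds CD26, differed by 0.60 (SE 0.15, limma adjusted p = 0.215) and the chemokine gene *Ccl5* by 0.61 (SE 0.38, adjusted p = 0.617), both with higher means in the arrays labelled SCLtg LMO1tg. *Igf2r* differed by −0.36 (SE 0.13) and *Cxcl12* by 0.33 (SE 0.21). *Fap*, the neighbour peptidase gene of *Dpp4* on its chromosome, lay below the filter.
In the list of relatives and ligands of *Cd96*, to which *Cd200* and *Cd200r1* were added, 4 of 9 genes with a probe set were tested, with a median of −0.02. *Pvr*, which encodes CD155, the ligand, differed by 0.01 (SE 0.16, limma adjusted p = 0.990), *Nectin2* by −0.19 (SE 0.16), *Nectin3* by −0.05 (SE 0.17) and *Cd200* by 0.24 (SE 0.14). None of the 4 passed.
Of the other chromosomal neighbours that were tested, none passed either. *Kdr* and *Chic2*, on the 2 sides of *Pdgfra*, differed by −0.02 and 0.17, *Hmgxb3* near *Pdgfrb* by −0.0033, and *Mkln1* beside *Podxl* by 0.01 (limma adjusted p between 0.721 and 0.993).

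**Figure D3:**
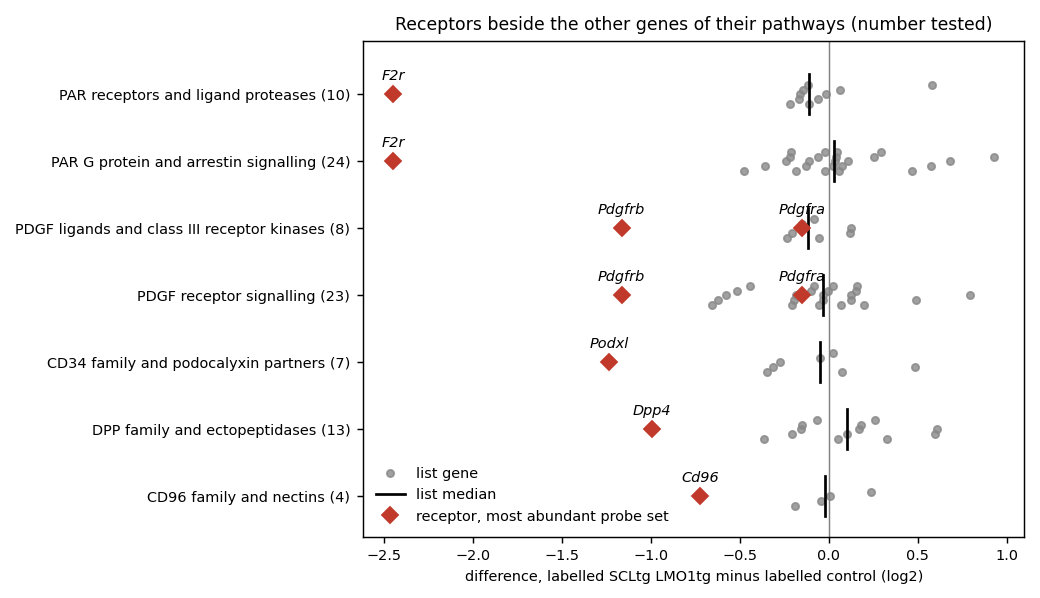
Difference between the arrays labelled SCLtg LMO1tg and those labelled control (log2, x axis) for each tested gene of the 7 pathway lists (grey points, with a black line for the list median) and for the receptor of that pathway at its most abundant probe set (red diamonds). *F2r*, *Pdgfrb*, *Podxl*, *Dpp4* and *Cd96* lie to the left of every gene of their lists, and *Pdgfra*, at −0.15, lies among them. Apart from *Pdgfra*, the receptors were chosen for the size of their differences, so this order follows from the choice.

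The genes whose profiles over the 6 arrays lay nearest to those of the receptors were found by the root mean square distance of centred log2 values, over 8687 genes. They were chosen by this likeness, so their differences carry no test. Nearest to *F2r* were *Cpa3*, a carboxypeptidase gene of mast cells and progenitors, at a distance of 0.18, *Sytl2*, which acts in vesicle transport, at 0.36, and *Lmo1* at 0.38. *Cpa3* differed by −2.53 between the groups and *F2r* by −2.45. For *Cpa3*, and for *Lyl1* and *Hhex* named next, the direction is again opposite to the one that the study gives.
Nearest to *Pdgfrb* was *Rab38*, a gene of vesicle traffic, at 0.08, followed by *Esm1* and *Dapp1* at 0.22 each. Like *Pdgfrb*, *Rab38* had its highest value in control replicate 1. Nearest to *Podxl* were *Lyl1*, which encodes a relative of SCL, at 0.14, *Cst7* at 0.21 and *Tes* at 0.25. Nearest to *Dpp4* was *Hhex*, a homeobox gene of early progenitors, at 0.09, followed by *Pheta2* at 0.17 and *Inpp5b* at 0.18.
Nearest to *Cd96* were a T-cell receptor beta variable segment, *Trbv13-2*, at 0.09, the thioredoxin inhibitor gene *Txnip* at 0.12 and *Mpzl2* at 0.12. No gene was among the 3 nearest of more than 1 receptor. The distance keeps the size of a difference, so receptors with unlike differences are unlikely to share a near gene.

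**Figure D4:**
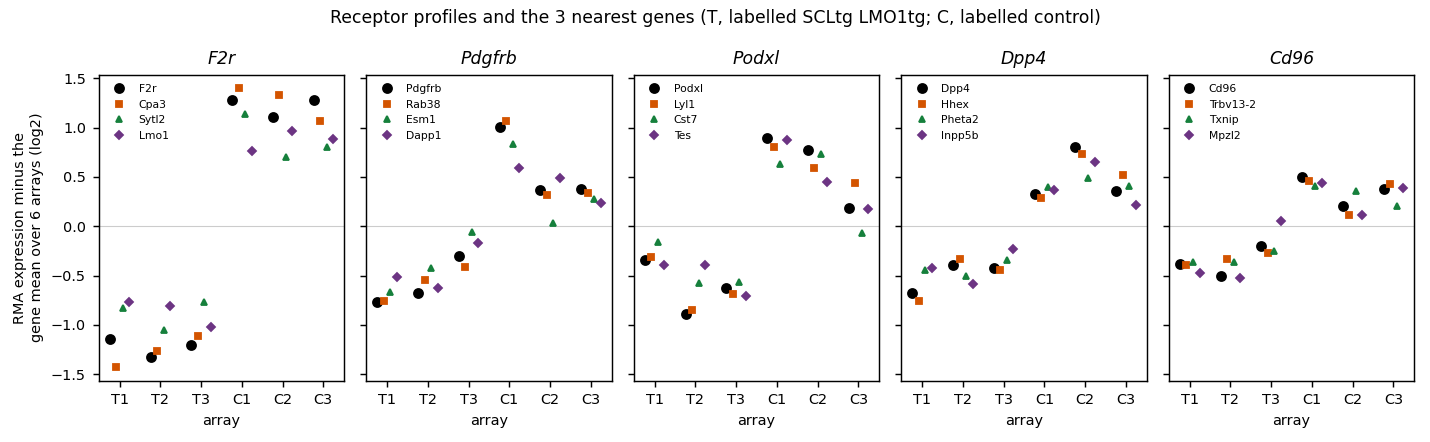
Log2 expression minus the gene's mean over the 6 arrays (y axis) for each receptor at its most abundant probe set (black) and its 3 nearest genes (coloured markers) in the arrays labelled SCLtg LMO1tg (T) and control (C), numbered by replicate. *Cpa3* follows *F2r* at a distance of 0.18, and *Rab38* follows *Pdgfrb* at 0.08.

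Some of these receptors mark cells other than thymocytes, so marker lists of those cells were read in the same arrays. Markers of early thymocytes were present: 18 of 20 with a probe set passed the filter, and the mean log2 level over the list was 8.69 to 8.93 in the arrays labelled SCLtg LMO1tg and 8.56 to 8.78 in those labelled control. Of the 18 tested, 13 had a higher mean in the arrays labelled SCLtg LMO1tg and 5 a lower one. *Ptcra*, the pre-T-cell receptor chain, was the only list gene called. It differed by 1.28 (SE 0.16, limma adjusted p = 0.0127), also opposite to the study's direction. *Rag1* and *Rag2* differed by 0.97 (SE 0.22) and 0.82 (SE 0.22). *Cd8a* and *Cd8b1* lay below the filter, and *Cd4* differed by −0.26 (SE 0.15).
Markers of fibroblasts and pericytes, where *Pdgfrb* is best known, had list means of 5.09 to 5.26 against 5.14 to 5.37, and those of endothelium, which also carries *F2r* and *Podxl*, 4.94 to 5.22 against 5.11 to 5.33. The groups overlapped in both lists. Of 20 fibroblast and pericyte genes 10 lay below the filter, among them *Col1a1*, *Col3a1*, *Lum* and *Postn*, and of 16 endothelial genes 8, among them *Cdh5*, *Tek*, *Tie1* and *Vwf*. No gene of either list passed limma, the median differences were −0.10 and −0.13, and the most different genes were *Tagln* (−0.28, SE 0.19), *Des* (−0.21, SE 0.24) and *Dcn* (−0.20, SE 0.16), and *Pecam1* (−0.49, SE 0.20), *Cldn5* (−0.25, SE 0.16) and *Eng* (−0.23, SE 0.17).
Megakaryocyte and platelet markers had means of 5.33 to 5.60 against 5.42 to 5.62, with *Treml1*, *Pf4* and *Itgb3* at −0.26, −0.23 and −0.14 (SE 0.17, 0.17 and 0.15). Markers of NK and innate lymphoid cells, where *Cd96* is abundant, had means of 5.92 to 6.07 against 5.90 to 6.03, with *Klrd1*, *Tbx21* and *Gzmb* at 0.50, 0.29 and −0.14 (SE 0.22, 0.14 and 0.16). The groups overlapped in both lists.

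The means of 6 other lists lay apart between the groups, and in 5 of these the order did not hold once the 1 or 2 most different genes were left out. How often lists of other genes lie apart was not estimated, so the count is a description. Markers of DN1 and DN2 progenitors stood at 6.15 to 6.20 against 6.26 to 6.35, with *Lyl1* lower by limma at −1.22 (SE 0.18, limma adjusted p = 0.0320) and *Hhex* at −1.03 (SE 0.17, adjusted p = 0.0723), *Cd44* being at 0.39 (SE 0.16). This order rested on *Lyl1* and *Hhex*: the means of the other 10 genes were 6.12 to 6.18 against 6.03 to 6.11, higher in the arrays labelled SCLtg LMO1tg. Neutrophil markers stood at 6.46 to 7.07 against 5.66 to 6.28, with *S100a8* at 2.09 (SE 0.34, adjusted p = 0.0598), *Ngp* at 1.76 (SE 0.42) and *Camp* at 1.54 (SE 0.41). Mast cell and basophil markers stood at 5.51 to 5.64 against 5.82 to 6.02, where *Cpa3* fell by 2.53 on the log2 scale (limma adjusted p = 7.6e-05) and the next, *Kit* and *Gata2*, differed by −0.23 and −0.22. Without *Cpa3* the other 10 mast cell genes stood at 5.28 to 5.43 against 5.36 to 5.60, and the groups overlapped.
B-cell markers stood at 5.30 to 5.47 against 5.56 to 5.72 (*Ms4a1* at −0.77, *Cd79a* at −0.64 and *Cd22* at −0.34) and double and single positive markers at 5.05 to 5.25 against 5.28 to 5.51 (*Klf2* at −0.53 and *Cd6* at −0.31). Gamma delta T-cell markers stood at 6.05 to 6.19 against 6.23 to 6.28, over 4 genes (*Cd27* at −0.35, *Sox13* at 0.12 and *Blk* at 0.02). Without the most different gene of a list the groups overlapped for double and single positive markers (*Klf2* left out) and gamma delta T-cell markers (*Cd27* left out), and without the 2 most different they overlapped for B-cell markers too, while neutrophil markers still lay apart, at 6.19 to 6.66 against 5.58 to 6.09. These omissions were chosen after the values were seen.
Erythroid markers overlapped between the groups, at 6.52 to 7.03 against 6.36 to 6.53 (*Slc4a1* at 1.07, *Alas2* at 0.55 and *Ermap* at 0.53). The higher mean of *Slc4a1* is also opposite to the direction that the study gives. Thymic epithelium overlapped too, at 5.94 to 6.32 against 5.89 to 6.06 (*Epcam* at 0.57, *Ccl25* at 0.47 and *Krt8* at 0.35). So did macrophages and dendritic cells, at 6.62 to 6.95 against 6.68 to 6.85 (*H2-Ab1* at −0.33, *C1qa* at 0.30 and *H2-Aa* at −0.25). The part of these cells in the differences of *F2r*, *Pdgfrb*, *Podxl*, *Dpp4* and *Cd96* was not tested.

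**Figure D5:**
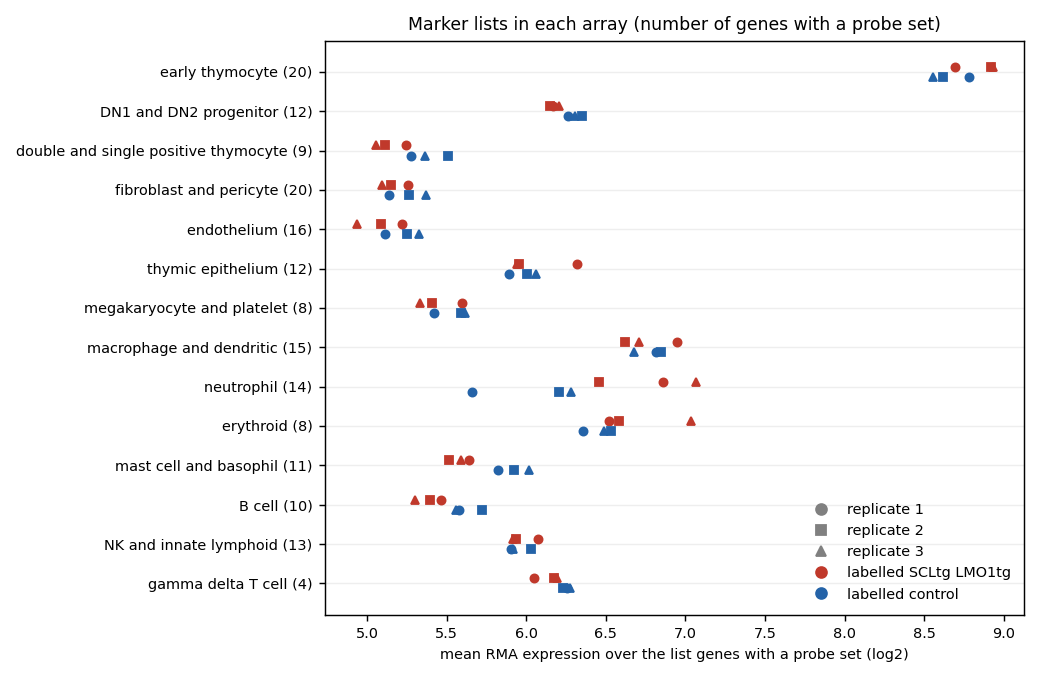
Mean RMA expression (log2, x axis) over the genes of each marker list in each array, red for arrays labelled SCLtg LMO1tg and blue for arrays labelled control, with the number of genes with a probe set in brackets. The groups overlap for fibroblasts and pericytes, for endothelium and for NK and innate lymphoid cells, and lie apart for neutrophils, at 6.46 to 7.07 against 5.66 to 6.28.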

How the data were processed

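The deposited values are log2 expression, 1 per probe set and array, which the authors computed from 6 Affymetrix mouse arrays by RMA in the affy package (version not given in the sources used here). The MAS5 step by which the authors dropped absent probe sets has not been applied to these values. The annotation names 1 gene for 20393 of 22690 probe sets, several for 691 and none for 1606; 64 probe sets are Affymetrix controls and were left out of all tests. The filter on low values kept a probe set if 3 or more of the 6 arrays reached their own 40th percentile, which left 13776 and, at the probe set with the highest mean, 8693 genes.

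The comparison used limma 3.58.1 (R 4.3.3), without covariates and two-sided, at a Benjamini-Hochberg adjusted p under 0.05 over all genes. Standard errors of the receptors came from limma over all probe sets without a filter. Rank products used 9 pairwise differences and 100 permutations. The fits were tested on simulated data. The number of arrays limits the precision. The named genes were all receptors, the 4 most different genes of each pathway list, the 3 most different of each marker list, the 3 nearest profiles and the chromosomal neighbours; *F3*, *Thbd*, *Procr* and other genes below the filter are examples chosen after their values were seen. The receptors and the lists were chosen with earlier results of these data known.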

Additional observations from a re-analysis of the deposited data

How the results depend on the processing

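Of 147 values of the receptor probe sets under other settings, 134 lay within 1 SD (pooled within groups) of the value given and 13 moved further. A block for the replicate number leaves each difference unchanged by design, and centring the arrays on their medians shifts all of them equally. Fits with 1 array left out share the other arrays with the main fit. So the count does not measure how firm the values are. After quantile normalization once more *F2r* differed by −2.57 at 1437308_s_at. In the deposited values, averaged over a gene's probe sets, *F2r* differed by −2.23 and *Podxl* by −0.65. With array weights *Podxl* 1417396_at differed by −0.32. Within the high hybridization set the values were −2.34 for *F2r* 1437308_s_at, −0.82 for *Podxl* 1448688_at and −1.26 for *Dpp4* 1416697_at. Within the low set they were −1.50 and −1.20 for *Pdgfrb*, 0.0448 for *Pdgfra* 1421916_at, −1.65 for *Podxl* 1448688_at, and −1.21 and −0.74 for *Dpp4* 1441342_at and 1416697_at.

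With 1 array left out, *F2r* ranged from −2.51 to −2.40 and from −2.32 to −1.82, *Pdgfrb* from −1.30 to −0.95 and from −0.86 to −0.46, *Pdgfra* from −0.25 to −0.03 and from −0.13 to 0.09, *Podxl* from −1.45 to −1.10 and from −0.23 to 0.07, *Dpp4* from −1.08 to −0.84 (1416697_at) and from −1.03 to −0.40 (1441342_at), and *Cd96* from −0.80 to −0.65.

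The 14 genes called became 31 after quantile normalization (10 higher and 21 lower, against 7 and 7), 28 with a block for the hybridization set, 547 under array weights (420 higher and 127 lower), 33 at an adjusted p under 0.1, and 88 and 22 by rank products under 0.1 and 0.01. They numbered 7 to 27 with 1 array left out, the lowest without control replicate 2 and the highest without control replicate 1 (20 higher and 7 lower), and 8 each without SCLtg LMO1tg replicate 2 or 3. The 0 calls in the pathway lists became 7 under array weights (*Gab1*, *Grb2*, *Prkca*, *Prkcb*, *Rgs2*, *Stat3* and *Stat5b*) and 1 with a block for the hybridization set (*Stat5a*), and were 0 under each omission of 1 array. The cause was not tested. With the replicate number as a block 9 genes passed; deviations of same-numbered arrays correlated at −0.64, 0.01 and −0.38, which does not pair the arrays.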
